A study of Saccharomyces cerevisiae with 12 samples.

Results

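The 38 genes described here form the fatty acid oxidation, carnitine and peroxisome set of the budding yeast Saccharomyces cerevisiae. They were taken from a fixed list of gene names: 7 enzymes of peroxisomal beta-oxidation and its side reactions, 6 genes of fatty acid activation and peroxisomal entry, 4 genes of the carnitine shuttle, 2 transcription factors and 19 peroxins. All 38 were found among the 7127 rows with identifiers of the Saccharomyces Genome Database (SGD), and all 38 were among the 6127 genes with enough counts to be tested. RNA was sequenced from wild-type BY4742, a haploid laboratory strain of the alpha mating type, in 4 media that crossed 2% or 0.5% glucose with 7 or 1 mM potassium (K). The groups, with 3 biological replicates each, were 2SD7K (2% glucose, 7 mM K), 2SD1K (2% glucose, 1 mM K), 0.5SD7K (0.5% glucose, 7 mM K) and 0.5SD1K (0.5% glucose, 1 mM K). All 12 libraries carried 1 batch date, and the growth stage at harvest was not stated.

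In this yeast, fatty acids are broken down only in peroxisomes, where an oxidase, a multifunctional hydratase-dehydrogenase and a thiolase shorten an activated fatty acid and release acetyl-CoA. The acetyl unit leaves as a carnitine ester, made by carnitine acetyltransferases and carried into mitochondria, or enters the glyoxylate cycle. The enzymes are imported into peroxisomes by receptors and docking proteins called peroxins. In wild-type yeast many of these genes are repressed by glucose and are induced by oleate through the transcription factor pair Oaf1 and Pip2, which binds oleate response elements, together with Adr1.

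The sequences upstream of the genes are shown because 12 of the 18 members that were high in 1 library described below held an oleate response element. The element was searched on both strands as CGGNNNTNA and CCG with 9 to 12 bases between them. Sequences are from RefSeq assembly R64. In the 500 bases before the start codon, 16 of 38 members (42.1%) held a match, against 113 of 6000 protein-coding genes (1.88%). The element was defined in part on these genes, so this share is a description. In the acyl-CoA oxidase gene POX1 and the mitochondrial carnitine carrier gene CRC1, the stretch from 350 to 101 bases before the start codon is printed with the elements in capitals. Capitals in POX1 also mark the Adr1 core motif (TTGGAG or TTGGGG, either strand), which directly follows the element nearer to the gene and occurs again further on.
POX1 upstream stretch, chrVII:107808-108057, plus strand: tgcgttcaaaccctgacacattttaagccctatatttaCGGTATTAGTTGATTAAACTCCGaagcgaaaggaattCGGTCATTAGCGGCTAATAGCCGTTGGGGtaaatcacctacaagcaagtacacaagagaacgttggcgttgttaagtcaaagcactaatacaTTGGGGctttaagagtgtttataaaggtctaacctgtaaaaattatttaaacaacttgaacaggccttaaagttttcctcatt
CRC1 upstream stretch, chrXV:514379-514628, minus strand: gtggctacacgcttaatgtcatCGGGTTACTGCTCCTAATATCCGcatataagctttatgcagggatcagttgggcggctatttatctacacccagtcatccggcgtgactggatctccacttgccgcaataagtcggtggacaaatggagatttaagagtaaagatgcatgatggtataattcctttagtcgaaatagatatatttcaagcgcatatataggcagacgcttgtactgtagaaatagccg
For 9 other members 1 element is printed with 10 bases on each side, the element in capitals, on the strand that reads CGGNNNTNA first. FOX2 held another element, nearer to the gene, that is not printed. The first 7 printed belong to members that were over 2-fold above both partners in the library described below. Those of YAT1 and PEX6 belong to members that were not.
FOX2, chrXI:457327-457368, plus strand: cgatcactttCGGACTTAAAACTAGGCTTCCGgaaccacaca
POT1, chrIX:41600-41642, minus strand: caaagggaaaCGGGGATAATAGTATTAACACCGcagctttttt
ECI1, chrXII:707181-707223, minus strand: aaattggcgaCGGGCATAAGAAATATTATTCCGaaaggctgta
DCI1, chrXV:675276-675319, minus strand: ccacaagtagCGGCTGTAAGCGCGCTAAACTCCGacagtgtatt
SPS19, chrXIV:259402-259445, plus strand: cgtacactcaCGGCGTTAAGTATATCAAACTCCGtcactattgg
FAA2, chrV:184345-184387, minus strand: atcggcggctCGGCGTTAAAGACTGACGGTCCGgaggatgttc
PEX11, chrXV:48746-48788, minus strand: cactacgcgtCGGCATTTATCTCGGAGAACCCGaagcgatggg
YAT1, chrI:190017-190058, minus strand: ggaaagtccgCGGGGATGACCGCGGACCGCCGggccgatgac
PEX6, chrXIV:22744-22787, minus strand: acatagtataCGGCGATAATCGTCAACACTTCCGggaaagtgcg
The 18 elements lay in the promoters of 16 members, POX1 and FOX2 with 2 each, and none overlapped an Adr1 core motif. The Adr1 core was present in 21 of 38 members (55.3%), against 26.2% of protein-coding genes. A match does not show that a factor bound there.

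Counts at SGD rows ran from 5634205 to 7036345 per library, and the remaining 34.0% to 41.6% of all counts fell on rows without SGD identifiers. Values are CPM, each count scaled to the library's TMM-adjusted SGD total. Errors are the standard error (SE) of a log2 fold change, derived from edgeR's quasi-likelihood F statistic. The spread in it was estimated over all 4 groups. Each group had n = 3 libraries, or n = 2 for 0.5SD7K in the fit without its replicate 2. A gene was called, in edgeR's quasi-likelihood test, where its p-value fell under 0.05 after Benjamini-Hochberg adjustment across every gene in the fit. LEU2, LYS2 and URA3, deleted in BY4742, and the a-mating genes MFA1 and MFA2 had no counts in any library, while HIS3, which is partly deleted in this strain, stood at 3.70 to 177 CPM. The summed level of 4 alpha-specific genes was lowest in 0.5SD7K (209 to 232 CPM) and highest in 0.5SD1K (923 to 970 CPM), and that of 6 a-specific genes lay between 60.6 and 158 CPM. Their part in the results was not tested. Replicate 2 of 0.5SD7K stood apart. Its log2 CPM correlated across genes with those of its partners at r = 0.884 and 0.892, against 0.989 between the partners. At 711 genes it was over 2-fold above or below all 11 others, against 60 genes for the next library, replicate 3 of 0.5SD1K. The main results that rest on this library are therefore given with and without it. In bulk RNA fewer expressing cells and less RNA per cell cannot be told apart.

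Within that library the listed genes were among those that stood apart. Of the 38, 18 were over 2-fold above both partners, against 8.32% of all genes tested. CRC1 alone was over 2-fold below both partners, against 13.7% of all genes. The ratio of replicate 2 to the mean of its partners was 30.6 for the dienoyl-CoA isomerase gene DCI1, 24.5 for POX1, 17.4 for the peroxisomal acyl-CoA synthetase gene FAA2 and 14.0 for FOX2, which encodes the multifunctional enzyme. It was 0.322 for CRC1 and 0.535 for the carnitine acetyltransferase gene YAT2. The other carnitine acetyltransferase genes were above the partners, at ratios of 1.88 for CAT2 and 1.64 for YAT1, so the carnitine genes did not move one way in this library. The partners themselves differed by at most 0.66 on the log2 scale over the 38 genes. Of the 16 members with an oleate response element, 12 (75%) were over 2-fold above both partners, against 6 of 22 without one (27.3%). Among other tested genes the shares were 15 of 92 with the element (16.3%) and 424 of 5530 without it (7.67%). Most of the 18 members over 2-fold above both partners also held the Adr1 core motif. Among them were FAA1, FAA4, PXA1 and PEX9, which had no oleate response element. The core motif was also present in CAT2, YAT1, YAT2, PEX4, PEX6, PEX15 and PEX27, which were not over 2-fold above. These shares and matches describe 1 library, and the part of either motif was not tested.

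**Figure D1:**
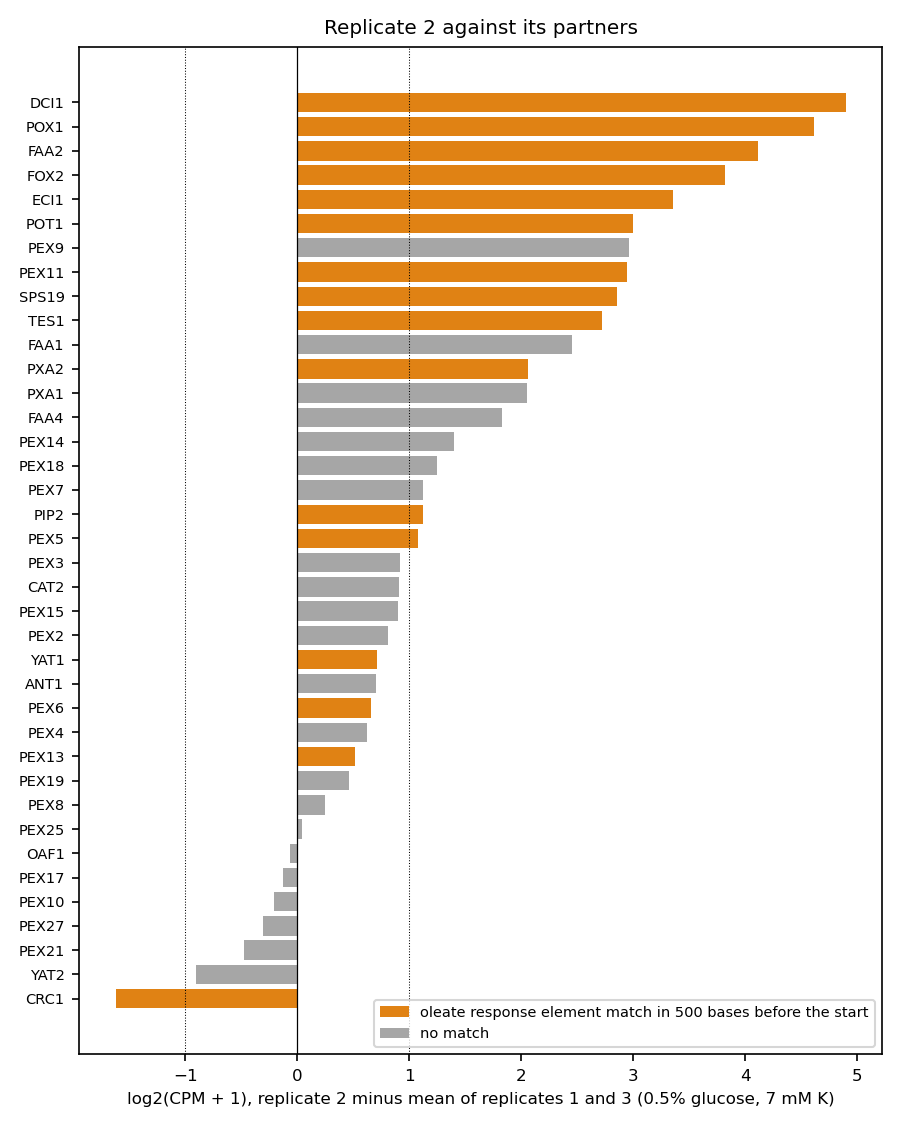
Log2(CPM + 1) of replicate 2 of 0.5SD7K minus the mean of its 2 partner libraries, for each of the 38 genes (x axis, log2 units), with bars coloured by whether an oleate response element was matched in the 500 bases before the start codon. DCI1 and POX1 are at the top, CRC1 is at the bottom, and dotted lines mark 2-fold.

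Levels per kilobase of coding length were compared between genes. In 2SD7K the highest were the carnitine acetyltransferase genes YAT1 (475 CPM per kb) and YAT2 (450 CPM per kb), followed by the long-chain acyl-CoA synthetase gene FAA1 (320 CPM per kb). The lowest were PEX9 (2.78 CPM per kb), which encodes an import receptor made under induction, DCI1 (10.4 CPM per kb) and POX1 (19.2 CPM per kb). In 0.5SD7K without replicate 2, all 4 carnitine shuttle genes headed the order, at 2348 CPM per kb for YAT2, 1042 for YAT1, 1011 for CRC1 and 820 for CAT2. With all libraries they did not head it: POT1 (1715 CPM per kb), FOX2 (1204) and POX1 (1183) stood above CAT2 (1060), and CRC1 (782) was below ECI1 (855). In 0.5SD1K the order was led by FAA1 (1962 CPM per kb), the dienoyl-CoA reductase gene SPS19 (1139 CPM per kb) and the thiolase gene POT1 (954 CPM per kb), and none of the carnitine genes was among the first 4.

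**Figure D2:**
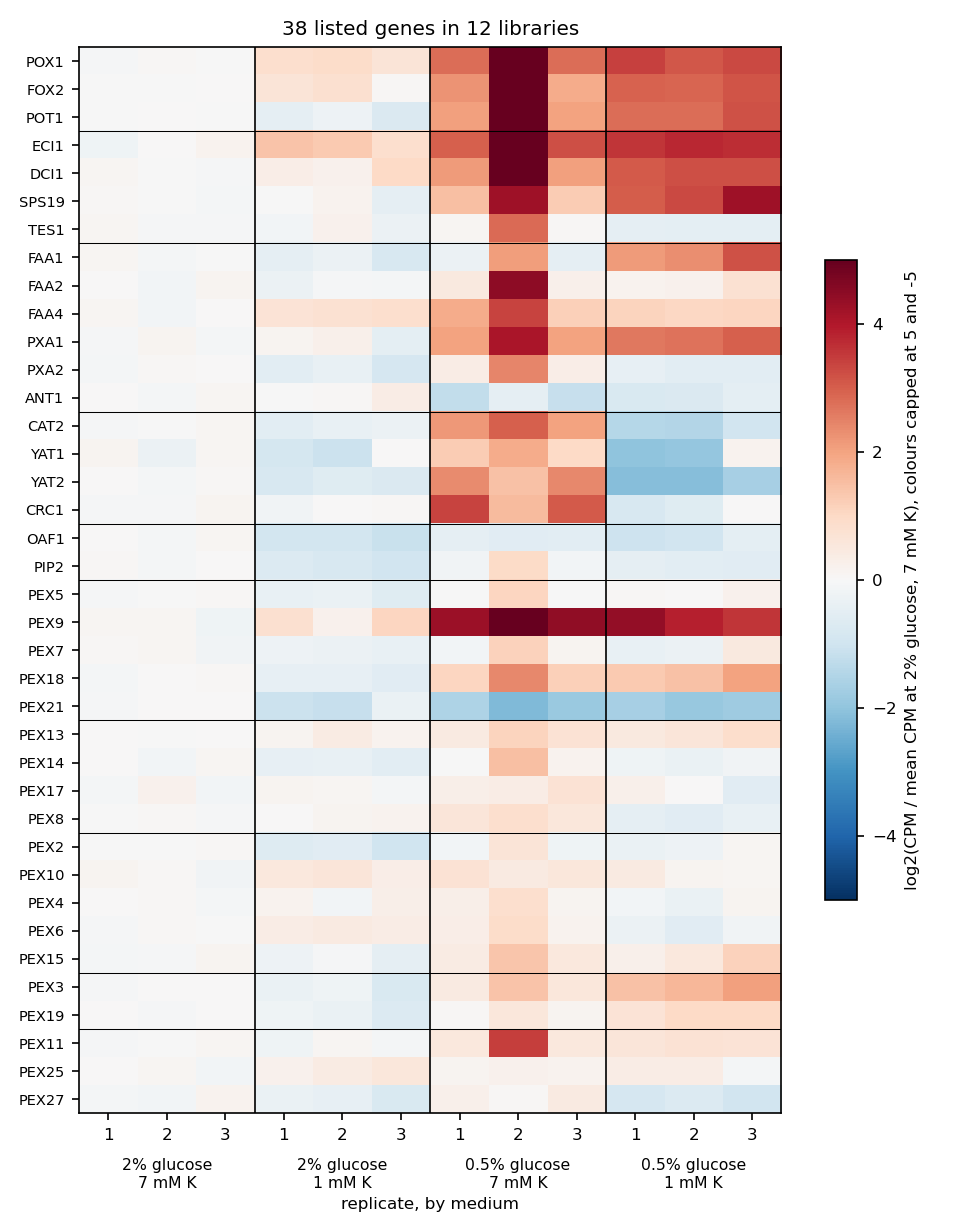
Log2 ratio of CPM in each of 12 libraries (columns, by medium and replicate) to the mean of 2SD7K, for the 38 genes (rows, in blocks by role), with the colour scale capped at 5 and -5. The cycle genes at the top are high in all 6 libraries at 0.5% glucose and darkest in replicate 2 of 0.5SD7K, and the 4 carnitine genes are high in 0.5SD7K and low in most libraries of 0.5SD1K.

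Glucose restriction at 7 mM K raised the 3 cycle genes, 3 of 4 carnitine genes and several genes of entry and import. Of the 38 genes, 22 rose and 3 fell, which is 25 called against a background of 33.9% of all genes (16.9% higher and 17% lower). When replicate 2 of 0.5SD7K was left out, 19 rose and 3 fell, against a background of 43.8% (22% higher and 21.8% lower), and 22 calls were shared between both fits. The median log2 fold change over the 38 genes was 0.91 with all libraries and 0.51 without that library, beside 0.03 over all genes. The groups did not overlap for 30 of the 38 genes, against 51.3% of all genes.

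POX1 (YGL205W, chrVII:108158-110404), the acyl-CoA oxidase that starts the cycle, stood at 41.7, 45.0 and 42.9 CPM in the replicates of 2SD7K and at 298, 7376 and 303 CPM in those of 0.5SD7K. All 3 restricted libraries were above all 3 controls, and replicate 2 was far above the rest. The log2 fold change was 5.94 ± 1.13 (SE; adjusted p = 0.00182) and 2.80 ± 0.13 without replicate 2 (adjusted p = 6.37e-09). FOX2 (YKR009C, chrXI:454352-457054) stood at 144, 145 and 150 CPM in 2SD7K and at 695, 8544 and 522 CPM in 0.5SD7K. Its log2 fold change was 4.48 ± 0.91 (adjusted p = 0.00282), or 2.06 ± 0.20 without replicate 2. POT1 (YIL160C, chrIX:40191-41444), the thiolase of the last step, stood at 155, 160 and 156 CPM and at 657, 5162 and 631 CPM. Its log2 fold change was 3.78 ± 0.71 (adjusted p = 0.00175), or 2.04 ± 0.17 without replicate 2. The rise of each of the 3 cycle genes was thus called in both fits, and its size depended on 1 library. The fold was 61.5 for POX1, 22.3 for FOX2 and 13.7 for POT1 with all libraries. Without replicate 2 it was 6.95, 4.17 and 4.11.

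Enzymes for unsaturated fatty acids moved with the cycle. ECI1, the enoyl-CoA isomerase, rose from 17.4, 21.0 and 23.0 CPM to 162, 1809 and 191 CPM, a log2 fold change of 5.13 ± 0.84 (3.10 ± 0.17 without replicate 2). DCI1 rose from 8.96, 8.35 and 8.04 CPM to 37.0, 1100 and 34.8 CPM, a log2 fold change of 5.52 ± 1.19 (2.09 ± 0.21 without). SPS19 rose by 3.01 ± 0.69 on the log2 scale (1.38 ± 0.29 without). The acyl-CoA thioesterase gene TES1 was not called, at 1.61 ± 0.58 (adjusted p = 0.0518), and its value fell to 0.09 ± 0.13 without replicate 2.

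Activation and entry genes were divided. PXA1, a subunit of the peroxisomal transporter for long-chain acyl-CoA, stood at 106, 124 and 106 CPM in 2SD7K and at 455, 1887 and 451 CPM in 0.5SD7K, a log2 rise of 3.05 ± 0.51 (2.01 ± 0.20 without replicate 2). Its partner subunit PXA2 stood at 141, 156 and 153 CPM and at 196, 804 and 188 CPM, a smaller log2 rise of 1.40 ± 0.45 (0.36 ± 0.13 without). The subunits of 1 transporter thus had unequal fold changes, and the difference between them was not tested. The long-chain acyl-CoA synthetase gene FAA4 rose by 2.44 ± 0.43 on the log2 scale (1.58 ± 0.17 without). FAA2 was at 125, 114 and 135 CPM and at 176, 2808 and 147 CPM, and its log2 fold change of 3.06 ± 0.90 (adjusted p = 0.0208) was 0.38 ± 0.18 and not called without replicate 2 (adjusted p = 0.103). An antisense neighbour, BUD25, overlaps FAA2 by 160 bases, and whether counting used strand was not stated. FAA1 was not called in either fit, and its sign turned from 0.95 ± 0.58 with all libraries to -0.37 ± 0.27 without replicate 2. ANT1, the peroxisomal ATP carrier, fell from 39.1, 36.4 and 41.5 CPM to 16.7, 28.7 and 17.7 CPM, a log2 fold change of -0.90 ± 0.21 (-1.18 ± 0.17 without).

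Of the 4 carnitine shuttle genes, CAT2, YAT2 and CRC1 rose in both fits. CAT2 (YML042W, chrXIII:192788-194800), the carnitine acetyltransferase of peroxisomes and mitochondria, stood at 372, 388 and 417 CPM in 2SD7K and at 1739, 3097 and 1562 CPM in 0.5SD7K, with a log2 fold change of 2.44 ± 0.28 (adjusted p = 6.36e-05; 2.07 ± 0.17 without). YAT2 (YER024W, chrV:202192-204963), a carnitine acetyltransferase outside peroxisomes, stood at 1277, 1154 and 1315 CPM and at 6500, 3480 and 6519 CPM, with a log2 fold change of 2.14 ± 0.28 (2.38 ± 0.19 without). CRC1 (YOR100C, chrXV:513295-514278) stood at 101, 101 and 117 CPM and at 1102, 320 and 887 CPM, with a log2 fold change of 2.86 ± 0.39 (3.23 ± 0.21 without). For YAT2 and CRC1, replicate 2 was the lowest of the restricted libraries, whereas for CAT2 it was the highest. YAT1 (YAR035W, chrI:190193-192256), the acetyltransferase of the outer mitochondrial membrane, stood at 1087, 792 and 1064 CPM and at 2368, 3516 and 1933 CPM. Its groups did not overlap, but its log2 fold change of 1.41 ± 0.55 was not called by edgeR (adjusted p = 0.0693; 1.13 ± 0.58 without replicate 2, not called) and was called by DESeq2.

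Among import receptors, PEX9 rose and the co-receptors of the Pex7 pathway went opposite ways. PEX9 (YMR018W, chrXIII:310208-311752) stood at 4.56, 4.60 and 3.70 CPM in 2SD7K and at 83.9, 694 and 92.0 CPM in 0.5SD7K, with a log2 fold change of 6.07 ± 0.83 (4.35 ± 0.26 without replicate 2). PEX18, a co-receptor of Pex7, rose from 56.2, 61.9 and 64 CPM to 128, 318 and 138 CPM (log2 fold change 1.68 ± 0.31; 1.13 ± 0.17 without). Its paralogue PEX21 fell from 74.0, 77.4 and 78.6 CPM to 26.5, 16.8 and 21.2 CPM (log2 fold change -1.83 ± 0.23; -1.68 ± 0.23 without). The constitutive receptor genes PEX5 (0.44 ± 0.25) and PEX7 (0.49 ± 0.31) were not called, and without replicate 2 their log2 fold changes were -0.014 and 0.0098. PEX11, which drives peroxisome proliferation, stood at 93.7, 94.3 and 103 CPM and at 139, 1073 and 138 CPM, a log2 rise of 2.21 ± 0.64 that was 0.52 ± 0.12 without replicate 2. Its relatives PEX25 and PEX27 were not called. PEX8, PEX10, PEX13 and PEX3 rose by 0.58 to 0.88 on the log2 scale and were called in both fits, while PEX6 (0.51) and PEX15 (0.83) were called only with replicate 2. The transcription factor gene OAF1 fell from 262, 240 and 279 CPM to 191, 177 and 179 CPM (log2 fold change -0.51 ± 0.16), and PIP2 was not called (0.33 ± 0.26; -0.15 ± 0.11 without).

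Of the 25 calls at 7 mM K, 17 held whichever of the 12 libraries was left out. The calls of PXA2, PEX3 and PEX11 were lost without any 1 of the 3 libraries of 2SD7K, with log2 fold changes over all such fits of 0.36 to 1.77, 0.50 to 1.08 and 0.52 to 2.69. Those of FAA2 (0.38 to 3.63) and PEX15 (0.46 to 1.04) were lost in the same 3 fits and without replicate 2 of 0.5SD7K. OAF1 (-0.55 to -0.46) was lost without replicates 1 or 3 of 2SD7K or replicate 3 of 0.5SD7K. PEX10 (0.50 to 0.65) was lost without replicate 3 of 2SD7K, and PEX6 (0.26 to 0.68) in 10 of 12 fits, all but those without replicates 1 or 3 of 0.5SD7K.

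**Figure D3:**
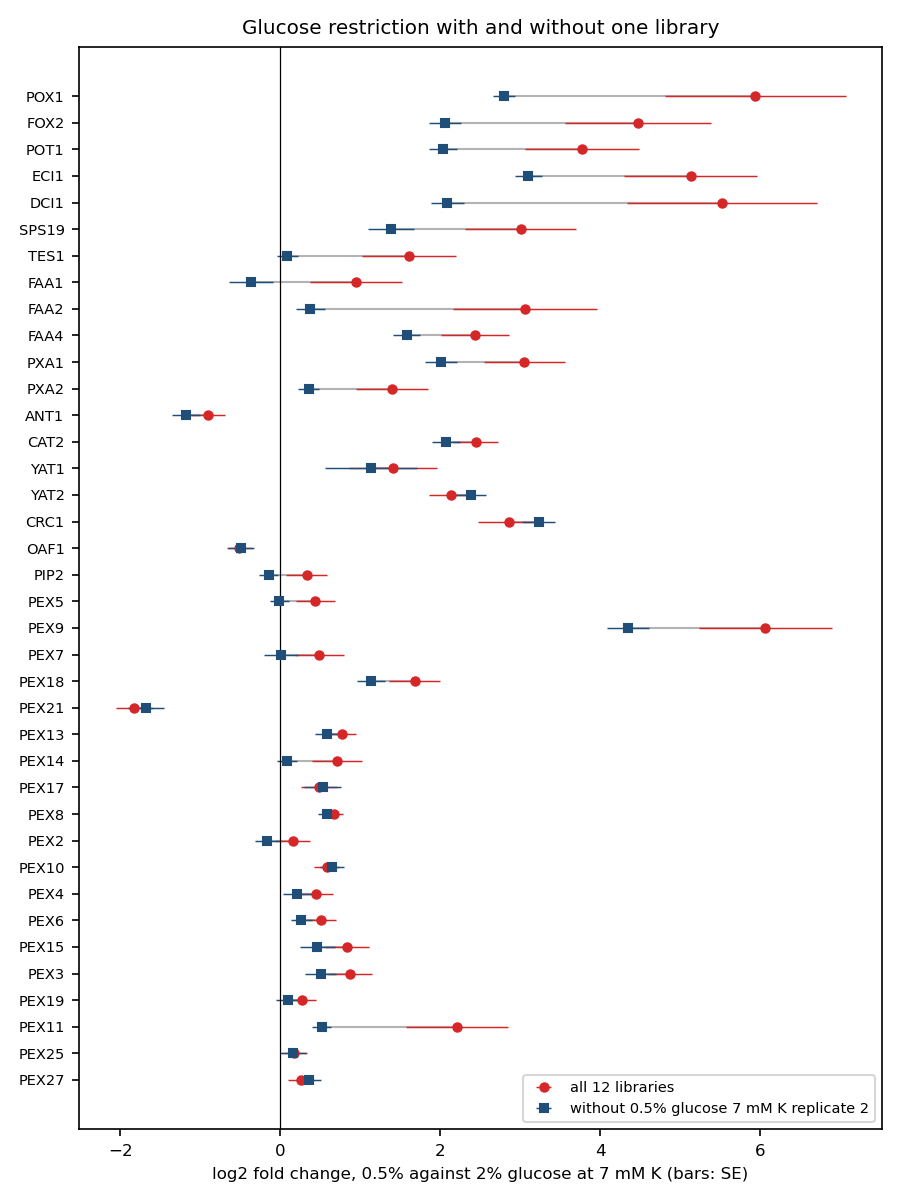
Log2 fold change of 0.5% against 2% glucose at 7 mM K (x axis) for the 38 genes, from the fit to all 12 libraries (circles) and without replicate 2 of 0.5SD7K (squares), with SE bars. POX1 moves from 5.94 to 2.80 and FAA2 from 3.06 to 0.38, while the carnitine genes CAT2, YAT2 and CRC1 move by under 0.4.

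Potassium restriction at 0.5% glucose lowered all 4 carnitine genes and raised FAA1, PEX3 and PEX19. Of the 38 genes, 3 rose and 16 fell, against a background of 48.4% called (23.5% higher and 24.9% lower). Leaving out replicate 2 of 0.5SD7K, a control library here, gave 12 that rose and 13 that fell, against 57.8% (29.6% higher and 28.2% lower). The median log2 fold change moved from -0.84 to 0.01, beside -0.02 over all genes. The groups did not overlap for 16 of the 38 genes, against 52.8% of all genes. This comparison and the previous one share the 3 libraries of 0.5SD7K, so a high or low value in that group moves both in opposite directions.

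CAT2 stood at 1739, 3097 and 1562 CPM in 0.5SD7K and at 144, 142 and 202 CPM in 0.5SD1K, a log2 fold change of -3.71 ± 0.30 (adjusted p = 4.62e-06; -3.33 ± 0.18 without replicate 2). YAT2 went from 6500, 3480 and 6519 CPM to 286, 282 and 399 CPM, the lowest log2 fold change of the set at -4.09 ± 0.31 (adjusted p = 2.76e-06; -4.32 ± 0.20 without). CRC1 went from 1102, 320 and 887 CPM to 61.2, 69.2 and 108 CPM, a log2 fold change of -3.28 ± 0.39 (-3.64 ± 0.22 without). In these 3 genes every library of 0.5SD1K was below every library of 0.5SD7K by a wide margin. YAT1 went from 2368, 3516 and 1933 CPM to 241, 254 and 1116 CPM, a log2 fold change of -2.28 ± 0.57 (adjusted p = 0.00649; -1.99 ± 0.58 without). Its replicate 3 in 0.5SD1K lay well above the other two, and without that library the log2 fold change was -3.42.

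The sign of the 3 cycle genes differed between the fits with and without replicate 2. POX1 stood at 298, 7376 and 303 CPM in 0.5SD7K and at 466, 373 and 432 CPM in 0.5SD1K. Its log2 fold change was -2.65 ± 0.97 (adjusted p = 0.0397) with all libraries and 0.51 ± 0.13 (adjusted p = 0.00495) without replicate 2, called in opposite directions. FOX2 stood at 1124, 1084 and 1280 CPM in 0.5SD1K, between replicate 2 and its partners. It was not called with all libraries (-1.48 ± 0.81) and was called higher without replicate 2 (0.94 ± 0.21). POT1, at 1083, 1075 and 1432 CPM in 0.5SD1K, changed likewise from -0.85 ± 0.64, not called, to 0.91 ± 0.18, called higher. SPS19, at 229, 1544 and 198 CPM in 0.5SD7K and 664, 810 and 1530 CPM in 0.5SD1K, changed from 0.61 ± 0.64, not called, to 2.25 ± 0.31, called higher. ECI1 and DCI1 had negative values that were not called with all libraries (-1.45 and -2.36) and were called higher without replicate 2 (0.59 and 1.09). TES1 was called lower in both fits (-2.08 ± 0.59 and -0.55 ± 0.13).

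FAA1 (YOR317W, chrXV:909343-911445) rose from 544, 2848 and 495 CPM to 2929, 3373 and 6079 CPM, a log2 fold change of 1.67 ± 0.59 (adjusted p = 0.034; 3.003 ± 0.31 without replicate 2). PEX3 and PEX19, which insert proteins into the peroxisomal membrane, rose by 0.87 ± 0.28 and 0.63 ± 0.18 on the log2 scale (1.25 ± 0.20 and 0.81 ± 0.15 without). PEX3 went from 376, 744 and 413 CPM to 776, 873 and 1148 CPM. PXA2 fell to 114, 104 and 105 CPM, a log2 fold change of -1.88 ± 0.46 (-0.82 ± 0.13 without), while PXA1, at 700, 733 and 896 CPM, was not called with all libraries (-0.26 ± 0.47) and was called higher without replicate 2 (0.79 ± 0.20). FAA2 (139, 144 and 214 CPM in 0.5SD1K) was called lower with all libraries (-2.66 ± 0.88) and stood at 0.04 ± 0.18 without replicate 2. FAA4 fell in both fits (-1.37 ± 0.41 and -0.50 ± 0.17), and ANT1 was called higher only without replicate 2 (0.55 ± 0.17).

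Peroxins of several steps fell in both fits. PEX8, the link between docking and receptor release, fell by 1.13 ± 0.12 (1.03 ± 0.11 without replicate 2), and PEX27, a relative of PEX11, by 1.09 ± 0.16 (1.17 ± 0.15 without) on the log2 scale. PEX6, an ATPase that recycles receptors, fell by 0.85 ± 0.19 (0.58 ± 0.13 without), and the docking gene PEX14 by 0.94 ± 0.31 (0.30 ± 0.12 without). PIP2 fell from 173, 384 and 179 CPM to 141, 136 and 133 CPM (log2 fold change -0.84 ± 0.26; -0.35 ± 0.11 without), and OAF1 was not called (-0.30 ± 0.16). PEX9 (89.4, 63.5 and 51.3 CPM in 0.5SD1K) and PEX4 were called lower only with replicate 2. PEX5, PEX7, PEX21 and PEX25 were not called in either fit, PEX11 was not called (-1.54 ± 0.62; 0.17 ± 0.12 without), and PEX18 was called higher only without replicate 2 (0.51 ± 0.18).

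Of these 19 calls, 9 held whichever library was left out: CAT2, CRC1, YAT1, YAT2, TES1, PXA2, PEX6, PEX8 and PEX27. Leaving out replicate 2 of 0.5SD1K ended 10 calls and leaving out its replicate 3 ended 7. FAA1 (log2 fold change 1.21 to 3.003 over all such fits) was lost in 9 of the 12 fits and kept without replicate 3 of 2SD7K, replicate 1 of 0.5SD1K or replicate 2 of 0.5SD7K. PEX3 (0.63 to 1.25) was lost without replicates 2 or 3 of 0.5SD1K or 1 or 3 of 0.5SD7K, and PEX19 (0.49 to 0.81) without replicate 2 of 0.5SD1K or 1 or 3 of 0.5SD7K. FAA4 (-1.79 to -0.50), PIP2 (-1.09 to -0.35) and PEX14 (-1.26 to -0.30) were lost only without libraries of 0.5SD1K: replicate 2 for FAA4, 2 or 3 for PIP2, and any 1 for PEX14. The calls of FAA2, PEX9 and PEX4 were lost without replicate 2 of 0.5SD7K and without 2 or 3 of the libraries of 0.5SD1K, PEX4 in 7 fits in all. POX1 was kept only without replicates 1 or 3 of 0.5SD7K.

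**Figure D4:**
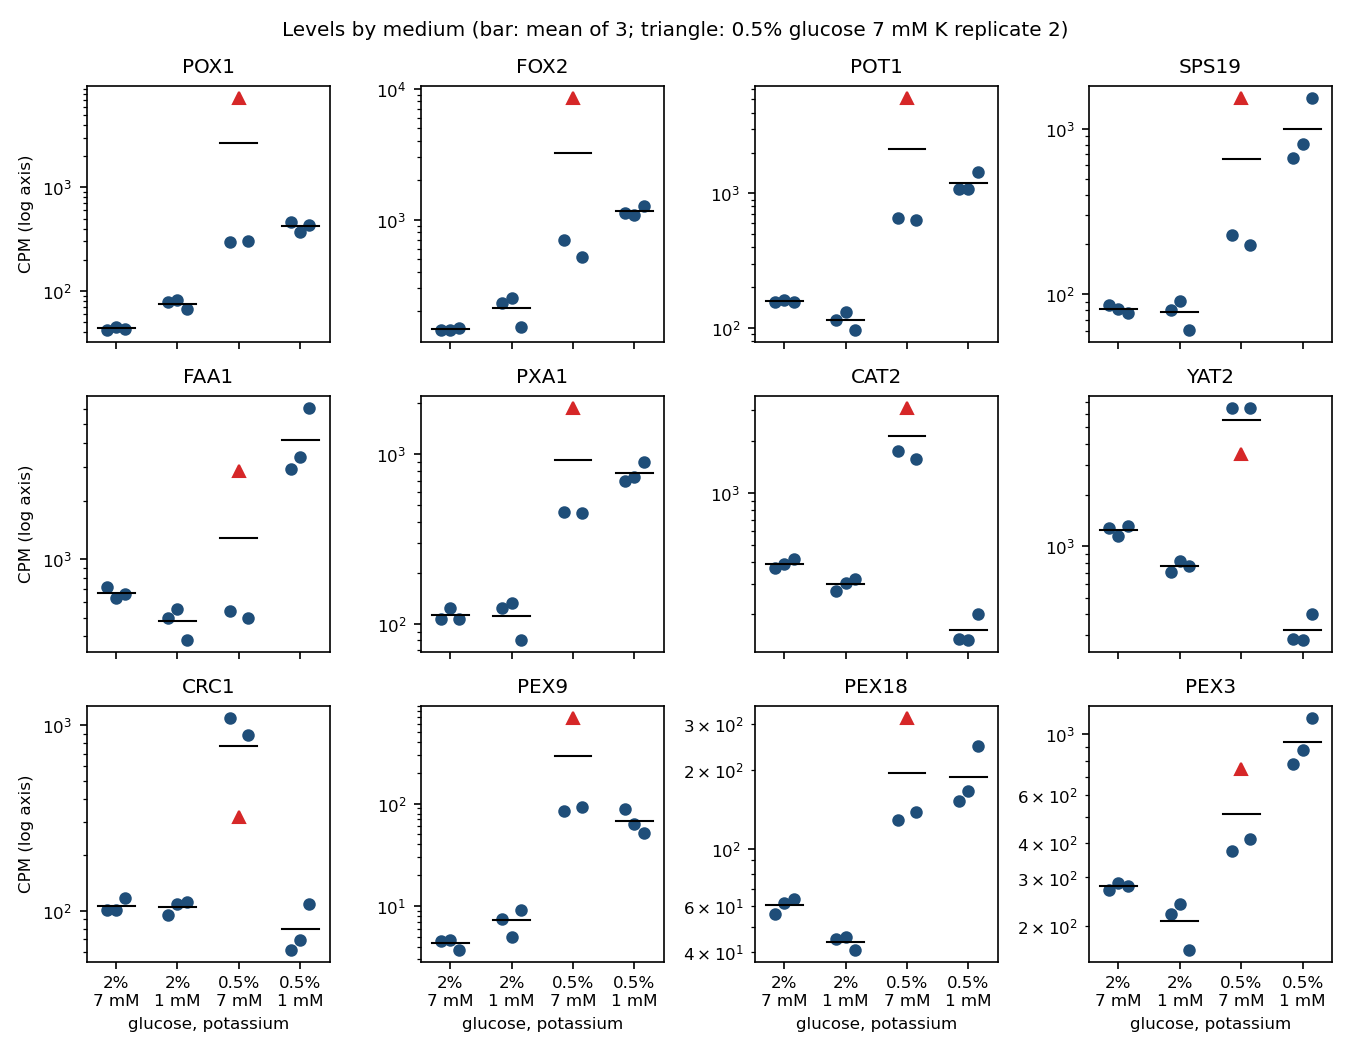
CPM on log axes for 12 members in each library, by glucose and potassium, with a bar at the mean of 3 and a triangle for replicate 2 of 0.5SD7K. CAT2, YAT2 and CRC1 are high in 0.5SD7K and low in 0.5SD1K, whereas POT1, SPS19 and PXA1 are high in both groups at 0.5% glucose.

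Glucose restriction at 1 mM K compared 0.5SD1K with 2SD1K, neither of which holds the library that stood apart. The cycle genes FOX2 and POT1, FAA1 and both membrane-assembly peroxins rose, while POX1 was not called with all libraries and none of the carnitine genes rose. Of the 38 genes, 11 rose and 6 fell, against a background of 34.8% called (16.3% higher and 18.4% lower). When replicate 2 of 0.5SD7K, which enters only the shared estimate of spread, was left out, 19 rose and 7 fell, against 51.1% (24.2% higher and 26.9% lower). The groups did not overlap for 28 of the 38 genes, against 54.7% of all genes.

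SPS19 had the largest log2 rise, 3.69 ± 0.72 (adjusted p = 0.00228), from 80.6, 91.0 and 60.6 CPM to 664, 810 and 1530 CPM. POT1 rose from 115, 131 and 96.1 CPM to 1083, 1075 and 1432 CPM, a log2 fold change of 3.39 ± 0.70 (adjusted p = 0.00322). PEX9 rose from 7.51, 5.01 and 9.10 CPM to 89.4, 63.5 and 51.3 CPM, a log2 fold change of 3.23 ± 0.73. For these genes the lowest restricted library was over 5-fold above the highest control. FAA1 rose by 3.11 ± 0.62 on the log2 scale, from 498, 555 and 383 CPM to 2929, 3373 and 6079 CPM. PXA1 rose by 2.79 ± 0.50, FOX2 by 2.46 ± 0.83, ECI1 by 2.46 ± 0.74, PEX3 by 2.17 ± 0.29, PEX18 by 2.10 ± 0.32, PEX19 by 1.31 ± 0.18 and PEX15 by 0.94 ± 0.28. POX1 went from 77.8, 80.6 and 67.0 CPM to 466, 373 and 432 CPM, with no overlap. Its log2 fold change of 2.49 was the same in both fits, with an SE of 0.96 and no call with all libraries (adjusted p = 0.0647) and an SE of 0.12 and a call without replicate 2 of 0.5SD7K (adjusted p = 1.26e-08). DCI1 (2.61) behaved in the same manner.

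YAT2 fell from 710, 821 and 766 CPM to 286, 282 and 399 CPM, a log2 fold change of -1.25 ± 0.28 (adjusted p = 0.00494). CAT2 fell from 273, 303 and 320 CPM to 144, 142 and 202 CPM, a log2 fold change of -0.87 ± 0.27 (adjusted p = 0.0269). CRC1 (-0.40 ± 0.36) and YAT1 (-0.30 ± 0.54) were not called. The other genes that fell were PEX21 (-0.98 ± 0.23), ANT1 (-0.79 ± 0.21), PEX6 (-0.73 ± 0.18) and PEX8 (-0.58 ± 0.12). PEX21 thus fell with glucose restriction at both potassium levels while its paralogue PEX18 rose at both, in comparisons that share no library. OAF1, PIP2, PXA2, FAA2, PEX5, PEX7, PEX11, PEX25 and PEX27 were not called with all libraries. Of the 17 calls, 12 held whichever library was left out. FOX2 (2.27 to 2.57) was lost without any library outside 0.5SD7K, ECI1 (2.30 to 2.54) without any library of 2SD1K or replicates 2 or 3 of 0.5SD1K, and CAT2 (-1.08 to -0.82) without replicates 2 or 3 of 2SD1K or 1 or 2 of 0.5SD1K. ANT1 (-0.91 to -0.67) was lost without replicate 3 of 2SD1K, and PEX15 (0.62 to 1.08) without replicates 1 or 3 of 2SD1K or 3 of 0.5SD1K.

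Potassium restriction at 2% glucose had few calls. Of the 38 genes, 1 rose and 5 fell, against a background of 28.1% called (13.1% higher and 15% lower), so the share called, 15.8%, was below that of all genes; without replicate 2 of 0.5SD7K it was above, at 55.3% against 50.5%. OAF1 (YAL051W, chrI:48564-51707), the oleate-responsive activator, fell from 262, 240 and 279 CPM in 2SD7K to 136, 139 and 119 CPM in 2SD1K, a log2 fold change of -0.98 ± 0.16 (adjusted p = 0.000826). Its dimer partner PIP2 (YOR363C, chrXV:1020222-1023212) fell from 202, 184 and 199 CPM to 122, 113 and 101 CPM, a log2 fold change of -0.80 ± 0.26 (adjusted p = 0.0378). Both activator genes therefore had non-overlapping groups, with all 3 restricted libraries lower. Groups did not overlap for 64.2% of all genes in this comparison. PEX21 fell from 74.0, 77.4 and 78.6 CPM to 36.5, 34.4 and 61.2 CPM (-0.80 ± 0.22), PEX2, a ubiquitin ligase subunit, fell from 98.6, 97.3 and 102 CPM to 63.4, 66.4 and 49.4 CPM (-0.73 ± 0.22), and PEX27 fell by 0.49 ± 0.16 on the log2 scale. PEX10, another subunit of that ligase, rose from 36.0, 34.1 and 29.4 CPM to 48.0, 50.3 and 42.2 CPM (0.50 ± 0.15).

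Only the OAF1 call held whichever library was left out. The PEX21 (-1.13 to -0.62), PEX2 (-0.80 to -0.63), PEX10 (0.42 to 0.56) and PEX27 (-0.56 to -0.39) calls were lost without any library of 2SD7K and without 2 or 3 of the libraries of 2SD1K: replicates 1 and 2 for PEX21 and PEX10, 2 and 3 for PEX27, and all for PEX2. PIP2 (-0.85 to -0.75) was lost without any library outside 0.5SD7K. In the fit without replicate 2 of 0.5SD7K, which is in neither group compared, 9 genes were called higher and 12 lower, against a background of 50.5% (26.6% higher and 23.9% lower). Those called higher were ECI1 (1.24 ± 0.16), POX1 (0.81 ± 0.12), FAA4 (0.78 ± 0.15), PEX9 (0.77 ± 0.28), DCI1 (0.57 ± 0.20), FOX2 (0.55 ± 0.18), PEX10 (0.51 ± 0.14), PEX25 (0.42 ± 0.15) and PEX6 (0.41 ± 0.12). Those called lower included YAT2 (-0.69 ± 0.17), PXA2 (-0.55 ± 0.12), POT1 (-0.45 ± 0.16), PEX18 (-0.45 ± 0.16) and PEX5 (-0.41 ± 0.11). The cycle genes POX1 and POT1 thus had opposite signs. The groups did not overlap for 26 of the 38 genes, against 64.2% of all genes. The split of calls depended on scaling: library totals over SGD rows gave 4 higher and 2 lower, and scaling by rows without SGD identifiers gave 2 higher and 1 lower, with OAF1 lower under each.

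Both restrictions together, 0.5SD1K against 2SD7K, gave 14 genes that rose and 7 that fell, against a background of 47.4% called (22.8% higher and 24.5% lower). DESeq2 gave 9 and 7, against 51.1% (24.7% higher and 26.5% lower), with 9 members given no adjusted p. In the fit without replicate 2 of 0.5SD7K, 17 were called higher and 11 lower, against 64.7% (33.4% higher and 31.3% lower). The highest log2 fold changes were those of PEX9 (3.98 ± 0.78), ECI1 (3.68 ± 0.78), SPS19 (3.62 ± 0.71) and POX1 (3.29 ± 1.00). The lowest were those of YAT2 (-1.95 ± 0.28), PEX21 (-1.78 ± 0.23) and CAT2 (-1.27 ± 0.27). In the fit without replicate 2 these values were 3.99, 3.69, 3.63 and 3.30, and -1.94, -1.77 and -1.25. YAT1 (-0.87 ± 0.55) and CRC1 (-0.42 ± 0.36) were not called in either fit. The groups did not overlap for 29 of the 38 genes, against 70.4% of all genes. Of the 21 calls, 16 held whichever library was left out. POX1 (3.18 to 3.35) was lost without any library of 2SD7K, FOX2 (2.91 to 3.01) without its replicate 1, and DCI1 (3.12 to 3.18) without any library of either group. ANT1 (-0.74 to -0.60) was lost without any library of 2SD7K or replicates 1 or 2 of 0.5SD1K, and FAA4 (1.00 to 1.09) in 10 of 12 fits, all but those without replicates 2 or 3 of 0.5SD7K.

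The interaction asked whether the potassium effect differed between glucose levels, taken as the log2 potassium effect at 0.5% minus that at 2% glucose. It was called for 10 of 38 genes, 3 positive and 7 negative, against a background of 29.9% called (14.8% positive and 15.2% negative). Among the genes called, the most negative values were those of YAT2 (-3.39 ± 0.40, adjusted p = 0.000144), CAT2 (-3.32 ± 0.39, adjusted p = 0.000146) and CRC1 (-3.26 ± 0.52, adjusted p = 0.000912). Each fell with potassium restriction at 0.5% glucose. At 2% glucose, where their log2 fold changes were -0.71, -0.39 and -0.02, edgeR called none of the 3 with all libraries, but YAT2 was called lower by DESeq2 (adjusted p = 0.0076) and by edgeR without replicate 2 (adjusted p = 0.00395). The values without replicate 2 of 0.5SD7K were -3.64, -2.95 and -3.64. YAT1 had an interaction of -1.71 ± 0.77 that was not called (adjusted p = 0.117; -1.44 ± 0.78 without). POX1 had the lowest value of the 38 genes, -3.45 ± 1.33, which was not called (adjusted p = 0.0706). Without replicate 2 of 0.5SD7K its value was -0.31, also not called. FAA4 (-2.13 ± 0.58; -1.28 ± 0.22 without), PEX6 (-1.24 ± 0.26), PEX8 (-1.24 ± 0.17) and PEX10 (-0.85 ± 0.22) were also negative. PEX3 (1.29 ± 0.39), PEX19 (1.04 ± 0.25) and OAF1 (0.68 ± 0.22) were positive. Without replicate 2 of 0.5SD7K, 11 genes were positive and 11 negative, against 47.5% (23.9% positive and 23.6% negative), and these included FAA1 (3.48 ± 0.38), SPS19 (2.31 ± 0.40) and POT1 (1.35 ± 0.24), none of which was called with all libraries.

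The split of the interaction calls depended on scaling: library totals gave 3 positive and 14 negative, scaling by rows without SGD identifiers 0 positive and 18 negative, and DESeq2 5 positive and 7 negative, against 35.1% (18.4% positive and 16.7% negative). The positive calls of PEX3, PEX19 and OAF1 were lost under the second of these scalings, where the median of all genes was -0.63. That of OAF1 was also lost under library totals, where this median was -0.34. The share of all genes called under either scaling is not given here. Of the 10 calls, 8 held whichever library was left out. OAF1 (0.47 to 0.74) was kept only without replicate 2 of 2SD7K, 1 or 2 of 0.5SD1K, or 1 or 2 of 0.5SD7K. PEX3 (1.06 to 1.66) was kept only without replicate 2 of 2SD1K, 1 of 0.5SD1K or 2 of 0.5SD7K.

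**Figure D5:**
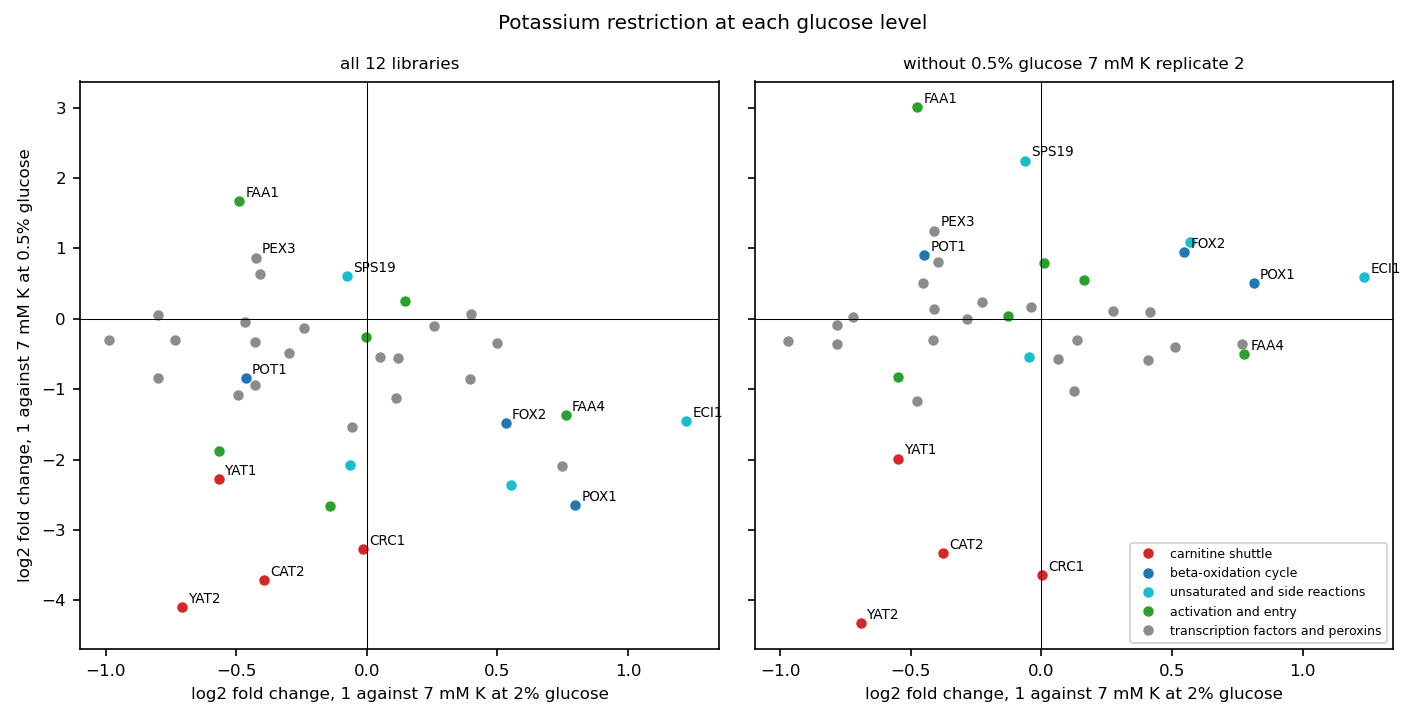
Log2 fold change of 1 against 7 mM K at 2% glucose (x axis) and at 0.5% glucose (y axis) for the 38 genes, coloured by role, from all 12 libraries (left) and without replicate 2 of 0.5SD7K (right). The 4 carnitine genes lie between -2.28 and -4.09 on the y axis at left and stay low at right, whereas POX1 moves from -2.65 to 0.51.

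Other genes of the same pathways were counted in lists. Among 17 further enzymes of fatty acid breakdown and peroxisomes, 7 rose and 4 fell with glucose restriction at 7 mM K, with a median log2 fold change of 0.24, against 33.9% of all genes called (16.9% higher and 17% lower). The counts were 7 and 7 without replicate 2 of 0.5SD7K, against 43.8%. The catalase gene CTA1, whose product removes the hydrogen peroxide made by the oxidase, rose by 5.55 on the log2 scale (2.99 without replicate 2 of 0.5SD7K) and by 4.81 at 1 mM K. IDP3, the peroxisomal isocitrate dehydrogenase that supplies NADPH to the dienoyl-CoA reductase, rose by 4.33 (2.24 without) and by 3.62 at 1 mM K. Of 16 other peroxisomal membrane, division and inheritance genes, 0 rose and 10 fell with potassium restriction at 0.5% glucose, against 48.4% of all genes called and 24.9% lower (0 and 9 without replicate 2, against 57.8% and 28.2%), with PEX32 at -1.47 on the log2 scale.

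Of 15 genes for acetyl-CoA use and the glyoxylate cycle, 9 rose and 0 fell with glucose restriction at 7 mM K, against 33.9% of all genes called (9 and 1 without replicate 2, against 43.8%). With potassium restriction at 0.5% glucose, 0 rose and 14 fell, against 48.4% (0 and 13 without replicate 2, against 57.8%). The median log2 fold change of the latter was -3.12 (-1.91 without). On the log2 scale the malate synthase gene MLS1 stood at -3.56, the peroxisomal citrate synthase gene CIT2 at -3.23, the mitochondrial succinate-fumarate carrier gene SFC1 at -3.27 and the mitochondrial CoA transferase gene ACH1 at -3.61. In 0.5SD7K, CIT2 stood at 10166, 1316 and 9916 CPM and ACH1 at 3041, 371 and 2844 CPM, so that replicate 2 was the lowest for both, as it was for CRC1. The acetate transporter gene ADY2 stood at 14.7, 17.3 and 16.6 CPM in 2SD7K and at 2651, 30965 and 1532 CPM in 0.5SD7K, so that replicate 2 was the highest there, as it was for POX1. MLS1 and CIT2 also belong to the list of further enzymes. With glucose restriction at 1 mM K, 1 of these 15 rose and 11 fell, against 34.8% of all genes called (3 and 11 without replicate 2 of 0.5SD7K, against 51.1%).

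Of 12 regulator genes, 4 rose and 1 fell with glucose restriction at 7 mM K (4 and 2 without replicate 2 of 0.5SD7K), and 2 rose and 4 fell with potassium restriction at 0.5% glucose. These shares, 41.7% and 50%, were near the 33.9% and 48.4% of all genes called. ADR1, the activator of glucose-repressed genes, was not called at 7 mM K (0.42) and rose by 1.05 on the log2 scale with glucose restriction at 1 mM K. SIP4, an activator of gluconeogenic genes, fell by 1.00 with potassium restriction at 2% glucose and by 2.79 at 0.5% glucose. Of 9 genes of fatty acid synthesis, 7 rose and 0 fell with potassium restriction at 2% glucose, against 28.1% of all genes called (8 and 0 without replicate 2 of 0.5SD7K, against 50.5%), a median log2 fold change of 1.54, with ELO2, an elongase gene, at 2.95, and FAS1, a fatty acid synthase subunit gene, at 1.90. Of 12 storage lipid genes, 0 rose and 4 fell in that comparison (0 and 8 without replicate 2 of 0.5SD7K), among them the steryl ester hydrolase gene YEH1 (-1.02), and 4 rose and 3 fell with potassium restriction at 0.5% glucose. These shares, 33.3% and 58.3%, stood beside 28.1% and 48.4% of all genes called. At 2% glucose every call was lower, against 15% of all genes called lower. Without replicate 2 of 0.5SD7K the share there was 66.7%, against 50.5% of all genes called and 23.9% lower.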

How the data were processed

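Gene expression was measured by paired-end RNA sequencing in 12 libraries. Per the labels' protocols and the submitters' processing notes, reads were mapped to build R64-1-1 with STAR 2.7.1a (2-pass) and quantified with RSEM 1.3.3, and the authors deposited RSEM expected counts by gene (whole numbers in the file, with 0 values not whole). Strandedness was not stated. Of 46904 rows, 7127 had SGD identifiers, of which 6444 were matched by identifier to RefSeq R64 names and 683 were not. The other 39777 rows had WBGene identifiers and were used only as an alternative scaling.

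Library sizes and TMM factors were computed over SGD rows, rows were filtered with filterByExpr, and a model with a mean for each of the 4 groups was fitted over the 12 libraries in edgeR 4.0.16 (robust quasi-likelihood, 8 residual degrees of freedom, biological coefficient of variation 0.2405, R 4.3.3). Adjusted p-values run over the 6127 genes tested in each of 6 comparisons, and the fit without replicate 2 of 0.5SD7K tested 6164. P-values measure the spread between the labelled biological replicates. The procedure was checked on simulated counts. DESeq2 1.42.0 gave no adjusted p for 9 of the 38 genes: POX1, FOX2, POT1, ECI1, DCI1, TES1, FAA2, PEX9 and PEX11.

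Members, pathway lists and tests were chosen with earlier results of these data known. Values per library were to be given for the 3 highest and 3 lowest called members of a comparison and for members that mark each role, with the others by counts, and up to 3 genes from each pathway list in each comparison. A few genes outside this rule (IDP3, ACH1 and ADR1, and further members given by their log2 fold changes alone) were named after their values were seen. The 500-base motif window was chosen after seeing the data, and in the window from 250 bases before to 50 after the start codon the element was found in 12 members (31.6%) against 0.9% of genes. Targeting signals in the proteins were not analysed here. Alternatives were DESeq2, library totals, scaling by rows without SGD identifiers, no count filter, a block for replicate number, and omitting every library in turn. Figures used Python 3.11.15 and matplotlib 3.10.9.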

Additional observations from a re-analysis of the deposited data

Results flagged for a closer look

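The difference between the potassium effect at 0.5% and at 2% glucose was itself tested as an interaction in edgeR. It was called for 10 of the 38 genes (26.3%), a share below the 29.9% of all genes called. On the log2 scale it was -3.39 for YAT2, -3.32 for CAT2, -3.26 for CRC1, -2.13 for FAA4, -1.24 for PEX6, -1.24 for PEX8 and -0.85 for PEX10, and it was 1.29 for PEX3, 1.04 for PEX19 and 0.68 for OAF1. Rows without SGD identifiers, which entered no comparison, held from 34.0% to 41.6% of all counts of a library, and no table used here names them.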

How the results depend on the processing

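Counts of called genes stayed within 1.5 times of the reported ones in all 6 comparisons with DESeq2, no count filter and the replicate block (block: 5 and 15 calls for potassium restriction at 2% and 0.5% glucose, 21 and 17 for glucose restriction at 7 and 1 mM K, 20 for both together and 9 for the interaction). The DESeq2 counts leave out the 9 members given no adjusted p, among them POX1, FOX2 and POT1, so those calls were not checked by it. Scaling by rows without SGD identifiers gave 3 calls for potassium restriction at 2% glucose and 18 for the interaction, and library totals gave 17 for the interaction. With these scalings the all-gene median was 0.30 and 0.24 for potassium restriction at 2% glucose and -0.63 and -0.34 for the interaction. Of 98 calls, 12 were lost with the first scaling and 5 with the second, 2 with no filter and 11 with the block. Leaving out 1 library gave 1 to 21 calls for potassium restriction at 2% glucose, 17 to 27 for glucose restriction at 7 mM K, 9 to 25 for potassium restriction at 0.5% glucose, 12 to 26 for glucose restriction at 1 mM K, 16 to 28 for both and 8 to 22 for the interaction. For potassium restriction at 2% glucose and the interaction, 55.3% and 57.9% of members were called without replicate 2 of 0.5SD7K. The all-gene shares rose too, from 28.1% to 50.5% and from 29.9% to 47.5%. All-gene shares for the other omitted libraries, the block and the scalings are not given here. Without replicate 2 of 0.5SD7K, POX1 (0.51) and FAA2 (0.043) changed sign for potassium restriction at 0.5% glucose, in ranges of -3.25 to 0.51 and -3.25 to 0.043 over all libraries left out. The causes were not tested. Same-numbered replicates of different groups correlated at -0.40 to 0.36 in their deviations from group means, over 0.1 in 4 of 18 pairs. Pairs with different numbers correlated at -0.42 to 0.45. The labels do not say whether a number marks a shared culture or day, and these correlations cannot exclude it. At 3 libraries a group, small changes of low genes such as PEX9 and PEX17 were measured with few counts.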
